A study of Caenorhabditis elegans with 2 samples.

Results

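The chaperone and heat shock genes were examined for regions bound by tagged LIN-11, a transcription factor of the LIM homeodomain class, in chromatin of late Caenorhabditis elegans embryos. They were chosen by name alone: every protein-coding gene called dnj, hsp, cct or pfd with a number, 65 of the 19973 protein-coding genes on nuclear chromosomes. Of these, 29 code for J-domain co-chaperones (dnj), 6 for HSP70 or HSP110 proteins, 2 for HSP90 proteins, 13 for small heat shock proteins, 8 for the cytosolic chaperonin (cct), 6 for prefoldin (pfd) and 1 for the mitochondrial chaperonin (hsp-60). Chromatin immunoprecipitation and sequencing (ChIP-seq) was done with an antibody against GFP on 2 biological replicates of strain OP62, whose genotype is unc-119(ed3) III; wgIs62. The worms stably express LIN-11 with GFP and FLAG at its C terminus, and both replicates carry the same unc-119 allele and the same transgene, whose driving sequence the labels do not name. Embryos of mixed sex were obtained by egg bleaching and labelled 4.25 hours, and the labels do not say from when that time is counted. All values therefore average over every cell of whole embryos, and with 1 group and no sample of an untagged strain analysed here no conditions could be compared. A gene was counted when the summit of a region lay no more than 1000 bp from at least 1 annotated transcription start site (TSS) of that gene.

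Chaperones bind unfolded or partly folded proteins and help them reach or keep their native form. J-domain proteins deliver substrates to HSP70 and stimulate its ATP hydrolysis, HSP110 exchanges its nucleotide, prefoldin hands new actin and tubulin to the cytosolic chaperonin, and small heat shock proteins hold unfolded proteins without using ATP. Many of these genes are expressed in all growing cells, whereas heat, through the factor HSF-1 and its heat shock elements, induces others from a low level. LIN-11 itself is known for the development of vulval cells and several neuron types, and heat shock elements are the sites of HSF-1, not of LIN-11.

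Sequences at 5 of the 6 genes with a reproducible region, and at the strongest small heat shock gene region, are shown because they place the letters of known sites against the summits described after them. The regions at dnj-29, among them the strongest of all members, are not shown. They are the plus strand of assembly ce11 (WBcel235) from the RefSeq genome, centred on the summit of the reproducible region, except that the hsp-16.2 sequence is from the strongest region of the pooled list and stops 4 bases after the start of its divergent neighbour hsp-16.41. Capitals mark every match, on either strand, to 6 motifs: GAANNTTC and TTCNNGAA, which are adjacent units of a heat shock element, 3 such alternating units in a row, TAATTA and TAATTG, which are cores of homeodomain sites, and GAGAGA. Units in a row contain the shorter motifs, so those matches overlap.
hsp-60 (chrIII:1619011-1619309): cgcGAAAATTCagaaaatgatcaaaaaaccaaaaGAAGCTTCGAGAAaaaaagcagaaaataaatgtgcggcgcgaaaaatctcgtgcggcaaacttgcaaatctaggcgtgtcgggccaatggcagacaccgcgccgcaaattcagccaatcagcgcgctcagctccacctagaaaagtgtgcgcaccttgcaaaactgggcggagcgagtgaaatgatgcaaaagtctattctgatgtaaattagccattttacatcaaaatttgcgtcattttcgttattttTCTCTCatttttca
cct-8 (chrIV:1094210-1094410): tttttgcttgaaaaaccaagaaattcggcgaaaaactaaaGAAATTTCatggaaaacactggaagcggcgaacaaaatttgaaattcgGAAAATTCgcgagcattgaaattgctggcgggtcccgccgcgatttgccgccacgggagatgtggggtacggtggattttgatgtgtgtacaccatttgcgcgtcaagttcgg
hsp-1 (chrIV:17278507-17278707): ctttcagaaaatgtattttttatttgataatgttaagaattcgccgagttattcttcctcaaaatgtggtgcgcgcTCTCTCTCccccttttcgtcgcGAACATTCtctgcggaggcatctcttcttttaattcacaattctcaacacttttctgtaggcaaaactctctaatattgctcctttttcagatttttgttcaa
dnj-9 (chrII:4851708-4851908): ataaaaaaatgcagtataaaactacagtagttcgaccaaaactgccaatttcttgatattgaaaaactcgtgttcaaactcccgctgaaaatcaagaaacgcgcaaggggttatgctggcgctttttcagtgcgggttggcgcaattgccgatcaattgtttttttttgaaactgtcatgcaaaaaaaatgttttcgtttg
dnj-5 (chrII:6858994-6859194): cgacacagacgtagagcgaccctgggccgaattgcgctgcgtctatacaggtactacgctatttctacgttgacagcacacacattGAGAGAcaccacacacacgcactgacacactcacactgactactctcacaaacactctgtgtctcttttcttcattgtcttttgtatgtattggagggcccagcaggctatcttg
hsp-16.2 (chrV:1804970-1805181): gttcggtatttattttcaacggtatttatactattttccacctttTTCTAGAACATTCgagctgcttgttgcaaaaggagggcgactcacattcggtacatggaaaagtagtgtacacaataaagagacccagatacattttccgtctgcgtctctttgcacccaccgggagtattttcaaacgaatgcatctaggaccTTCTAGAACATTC

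The printed sequences differ in length, with 299 bp for hsp-60, 212 bp for hsp-16.2 and 201 bp for each of the others. Matches farther from the summit could therefore be seen only for hsp-60 and hsp-16.2. The hsp-60 sequence held 3 units in a row starting 115 bp before the summit in plus-strand coordinates. In the cct-8 sequence GAANNTTC started 60 bp and 12 bp before the summit. The hsp-1 sequence had GAANNTTC starting 2 bp before the summit and overlapping matches to GAGAGA on the opposite strand 24 and 22 bp before it. The dnj-5 sequence had GAGAGA 14 bp before the summit, and the dnj-9 sequence held none of the 6 motifs. The summit of the strongest hsp-16.2 region lay between matches to 3 units in a row that started 104 bp before it and 50 bp after it. TAATTA and TAATTG were in none of these 6 sequences.

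Reproducible summits, those of regions that passed the authors' irreproducible discovery rate, lay at 6 of the 65 genes (9.23%, 95% exact interval 3.46 to 19). Of all protein-coding genes, 2.10% had such a summit. The 6 genes were dnj-29, dnj-9 and dnj-5, coding for J-domain proteins, hsp-60, the chaperonin subunit cct-8 and hsp-1, the constitutive cytosolic HSP70. The pooled list, made from both replicates' alignments together and holding many weak regions, had a summit at 47 members (72.3%, 59.8 to 82.7) against 39.0% of all genes. In the list of replicate 1 a summit lay at 45 members (69.2%, 56.6 to 80.1), against 40.4% of all genes. Replicate 2 also had 45 members (69.2%), against 37%. Among genes with a summit in the pooled list, 12.8% of the members (4.83 to 25.7) and 5.40% of all such genes also had a reproducible one. The shares were higher for the chaperone genes in all 4 lists, and no test was made of the difference, since the members were proposed with results of these data known. The 4 lists are not independent: the pooled list was made from both replicates, and the 560 reproducible regions are its 560 strongest. Intervals cover counting error over genes only, because the sources used here give no read depths.

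**Figure D1:**
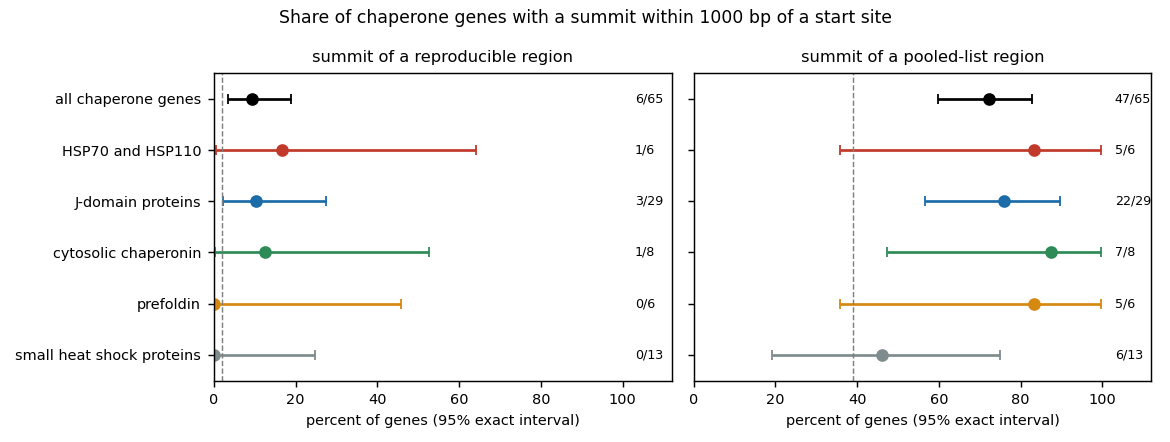
Percent of genes, on the horizontal axis, with a summit within 1000 bp of a TSS in the reproducible list (left) and the pooled list (right), for all 65 chaperone genes and for 5 of the classes, with 95% exact intervals as bars and the counts beside them; the dashed line is the share of all protein-coding genes (2.10% and 39.0%). Small heat shock proteins have the lowest share of the 5 classes in the pooled list (6 of 13), with an interval that overlaps those of the others, while the 2 HSP90 genes and hsp-60 are not drawn.

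The regions at the members were also stronger and more numerous than those at genes in general. Strength is given here as the signal value that the authors' peak caller assigned relative to 1 shared control alignment, on a scale that these sources do not state, and as the rank by that value within a list, where rank 1 is the strongest and mitochondrial regions are counted. The strongest pooled summit of the 47 members had a median signal value of 73.3 and a median rank of 2092 among 20692 regions, against 51.6 and 7911 for all genes with a pooled summit. A region among the strongest 1000 lay at 13 members (20%) and at 3.71% of all genes, and a region among the strongest 2000 at 23 members (35.4%) and at 6.55%. At 26 members (40%) the pooled list had 2 or more regions, against 11.9% of all genes, while the mean number of TSSs per gene was 1.57 for members and 1.49 for all genes. The strongest summit lay upstream of the nearest TSS of the gene at 34 of the 47 (72.3%), against 63.4%, with a median distance of 292 bp against 360 bp. Many worm transcripts are trans-spliced, so an annotated start can lie downstream of where transcription begins.

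**Figure D2:**
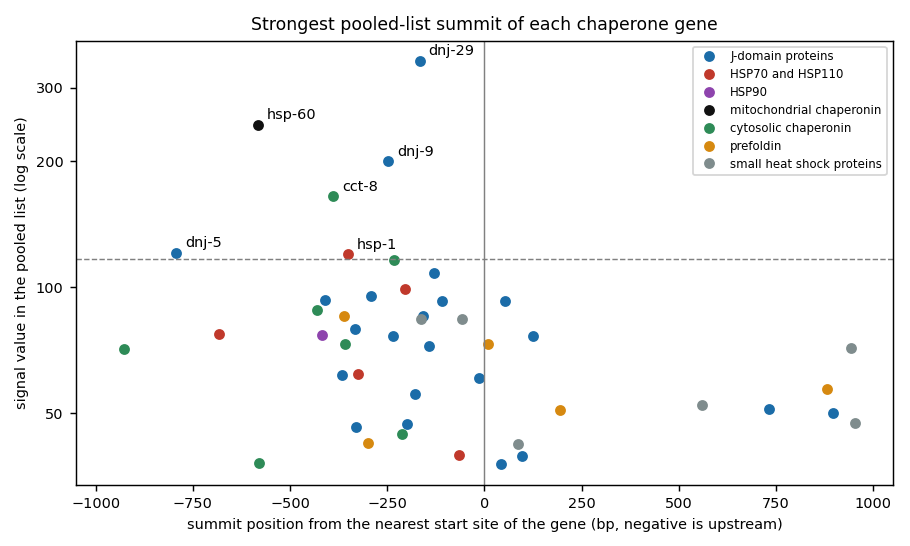
Position of the strongest pooled summit of each of 47 chaperone genes from the nearest TSS of that gene (horizontal axis, bp, negative is upstream) against its signal value (vertical axis, log scale), coloured by class; the dashed line is the lowest signal value of a reproducible region, 117. The 6 named genes are above the line and all upstream, between 167 and 793 bp from the start.

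J-domain proteins, the largest class, had the strongest region. At dnj-29, the worm gene for Sec63, which in yeast works in protein translocation into the endoplasmic reticulum (ER), the reproducible region (ce11, chromosome I, 14113143 to 14113390) had a signal value of 348 and rank 101 of 560. The overlapping region had a signal value of 220 and rank 89 in replicate 1, and 130 and rank 127 in replicate 2. Both replicates thus placed it among their strongest regions, and their summits were 5 and 10 bp from the reproducible one, which lay 167 bp upstream of dnj-29. A second reproducible region followed (14113262 to 14113691), with a summit 369 bp upstream, a signal value of 134 and rank 462. It ranked 1071 in replicate 1 and 278 in replicate 2. Both summits lie in the space between dnj-29 and ndua-2, a subunit of mitochondrial complex I on the opposite strand, whose starts are 528 bp apart. The second region extends past the start of ndua-2, at 14113636. The first summit was 361 bp and the second 159 bp from the start of ndua-2, so the weaker of them was nearer to ndua-2. The start of fld-1, a TLC domain protein, was also inside the window, 919 and 717 bp from these summits.

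The other J-domain genes with a reproducible summit differed in how well the replicates matched. At dnj-9 the region (chromosome II, 4851593 to 4852022, 248 bp upstream) had a signal value of 200 and rank 234, with a signal value of 110 at rank 264 in replicate 1 and 85.5 at rank 245 in replicate 2. No other protein-coding gene starts within 1000 bp of this summit. The gene nssp-16 ends on the same strand 395 bp before the start of dnj-9. At dnj-5 the region (chromosome II, 6858879 to 6859308, 793 bp upstream) had a signal value of 121 and rank 532, near the end of the reproducible list, whose lowest signal value is 117. By the overlapping region with the nearest summit it ranked 1323 in replicate 1, with a signal value of 53.0, and 1567 in replicate 2, with 40.0. Another region of replicate 1, of rank 745, also overlaps it, with a summit almost as near on the other side. All of these ranks are outside the strongest 560. The dnj-5 summit also had no other protein-coding start within the window, and its region had the highest GC content of the 7 reproducible regions at members, 47.2%.

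Further J-domain genes ranked outside the reproducible list, interleaved with members of other classes such as cct-1 (rank 578), hsp-110 (808) and pfd-1 (1230). At dnj-12, a class A cytosolic J-domain protein, the strongest pooled summit ranked 661 with a signal value of 108, 131 bp upstream, and the gene ranked 818 and 1490 in replicates 1 and 2. Its divergent neighbour is mtx-1, a metaxin of the mitochondrial outer membrane. Those of dnj-14 (rank 893), dnj-19 (943), dnj-28 (949), dnj-22 (954), dnj-10 (1226) and dnj-7 (1544) came next among the J-domain genes. Of these, dnj-14 codes for the worm cysteine string protein of synaptic vesicles, dnj-19 for another class A protein, dnj-10 for a mitochondrial and dnj-7 for an ER J-domain protein. For dnj-10 the replicates differed, with rank 4738 in replicate 1 and 599 in replicate 2. The strongest pooled summits of dnj-14 and dnj-19 lay nearer to the start of another gene, glit-1 and nhr-47. In all, 22 of the 29 J-domain genes had a pooled summit (75.9%, 56.5 to 89.7), against 39.0% of all genes. In replicate 1 a summit lay at 22 of them (against 40.4% of all genes) and in replicate 2 at 25 (against 37%). The genes dnj-17 and dnj-26 had none in any list.

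The HSP70 and HSP110 class gave the least alike pair of replicate values among the reproducible regions. The hsp-1 region (chromosome IV, 17278392 to 17278821, 352 bp upstream) had a signal value of 120 and rank 540. In replicate 2 it ranked 243 with a signal value of 85.9, but in replicate 1 it ranked 4443 with 38.7, although both replicates put the summit within 18 bp of the reproducible one. The region thus stood among the strongest 560 in replicate 2 but far outside them in replicate 1. No other protein-coding gene starts in its window, and the noncoding RNA gene F26D10.23 lies 105 to 194 bp from the summit. At hsp-110, which in animals acts as the nucleotide exchange factor of HSP70, the strongest pooled summit ranked 808 with a signal value of 98.9, 204 bp upstream, and here replicate 1 was the stronger (rank 615 against 3701). The genes hsp-3 and hsp-4 both code for BiP, the HSP70 of the ER. The constitutive hsp-3 ranked 1739 with a signal value of 77.2 and had 3 pooled regions, whereas hsp-4, the one induced by ER stress, ranked 17467 with 39.6. The mitochondrial hsp-6 ranked 3966. The heat-induced hsp-70 had no pooled summit and a weak one in replicate 1 alone, at rank 19974 of 21441.

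Of the HSP90 genes, hsp-90, the cytosolic form also known as daf-21, had 5 pooled regions, the most of any member, and no reproducible one. Its strongest pooled summit had a signal value of 76.7 and rank 1778. The strongest regions of the replicates lay at different places. In replicate 1 it ranked 879, with a summit 751 bp downstream of the nearest start. In replicate 2 it ranked 446, with a summit 357 bp upstream, near the pooled summit at 417 bp upstream. That pooled summit was assigned through the second annotated TSS of hsp-90 and lay nearer to a start of C47E8.4. The mitochondrial hsp-75 had no region in any list.

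The chaperonins gave a strong region in each compartment. The hsp-60 region (chromosome III, 1618945 to 1619374) had a signal value of 245 and rank 175. In replicate 1 it ranked 166 with a signal value of 149, and in replicate 2 it ranked 203 with 94.8. Its summit was 582 bp upstream of hsp-60 but only 231 bp upstream of Y22D7AL.10, which RefSeq describes as the mitochondrial 10 kDa heat shock protein, the co-chaperonin that caps HSP60. The starts of this divergent pair are 813 bp apart, and the region lies between them. At cct-8, the theta subunit of the cytosolic chaperonin, the region (chromosome IV, 1094095 to 1094524) had a signal value of 165 and rank 327, with 94.3 at rank 344 in replicate 1 and 81.1 at rank 271 in replicate 2. That summit too was nearer to the divergent neighbour, 231 bp from the start of the thioredoxin domain gene Y55F3AR.2 against 390 bp from cct-8. It lay 101 bp or more from the noncoding RNA gene Y55F3AR.4, and the pooled list had 3 further regions near starts of cct-8.

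The 8 chaperonin subunits build each ring of the complex together, and the strongest pooled regions at their genes ranged from rank 327 to none. After cct-8 came cct-1, the alpha subunit, at rank 578 with a signal value of 116, just under the lowest reproducible one. It ranked 714 in replicate 1 and 751 in replicate 2, and its summit, 232 bp upstream, was nearer to the start of mig-5, a dishevelled protein of Wnt signalling. The pooled ranks of cct-7 (1101), cct-6 (2110) and cct-2 (2330) followed, then cct-4 (12593) and cct-3 (19421), the latter close to the end of the list of 20692. For cct-5 the only summit was in replicate 2, at rank 9097. Thus 7 of the 8 genes had a pooled summit (against 39.0% of all genes) and 4 had one in both replicates (against 23.6%). In prefoldin 5 of 6 genes had a pooled summit (against 39.0%) and none a reproducible one (against 2.10%). The strongest was at pfd-1 (rank 1230, signal value 85.2), followed by pfd-5 (2092), pfd-3 (5499), pfd-4 (8312) and pfd-2 (14635), and pfd-6 had a summit in replicate 2 alone, at rank 6640.

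Small heat shock proteins were the class with the lowest share in the pooled list, 6 of 13 (46.2%, 19.2 to 74.9, against 39.0% of all genes). In no list was there a summit at 6 of the 13, a share close to that of all genes (8825 of 19973). The strongest pooled region was shared by hsp-16.2 and hsp-16.41, a heat-induced divergent pair with starts 221 bp apart. It ranked 1298 with a signal value of 84.0, and ranked 1312 and 2177 in replicates 1 and 2. All 3 pooled summits of either gene were counted for both. The region at hsp-12.3 ranked 2286 in the pooled list and 962 in replicate 1 but was absent from replicate 2, and its summit was 942 bp downstream of the start, nearer to F38E11.9 and within 200 bp of the small nuclear RNA gene F38E11.11. The genes hsp-25 (7531) and hsp-12.2 (14889) had weaker regions, hsp-12.1 had a summit in replicate 2 alone, and hsp-12.6, hsp-17 and hsp-43 had none in any list. Of the second hsp-16 locus, hsp-16.1 had a weak pooled summit 952 bp downstream of its start (rank 10537), within 200 bp of the small nuclear RNA gene T27E4.11, and hsp-16.11, hsp-16.48 and hsp-16.49 had none in any list. That locus consists of inverted arms of 1325 bp each, identical at all 1325 positions, and the sources used here do not say how reads matching both arms were handled. The absence of regions there is therefore uncertain.

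**Figure D3:**
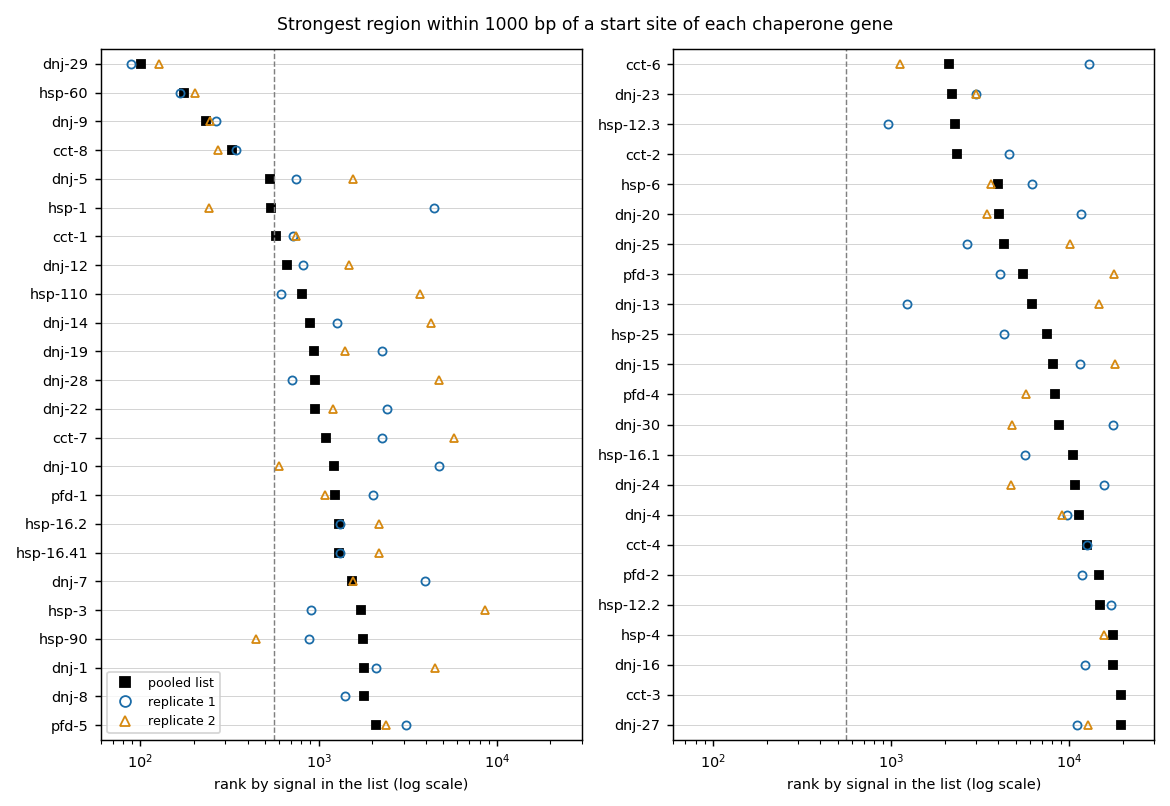
Rank by signal value (horizontal axis, log scale, stronger to the left) of the strongest region within 1000 bp of a TSS for each of the 47 chaperone genes with a pooled summit, in the pooled list (squares), replicate 1 (circles) and replicate 2 (triangles); a missing symbol means no summit in that list, and the dashed line marks rank 560. The first 4 genes, dnj-29, hsp-60, dnj-9 and cct-8, are left of the line in all 3 lists, and hsp-1 and hsp-90 are left of it in replicate 2 but not in replicate 1.

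Grouped by known use, constitutive members had pooled summits at 18 of 20 genes (90%, 68.3 to 98.8, against 39.0% of all genes) and reproducible ones at 2, cct-8 and hsp-1 (against 2.10%). The stress-induced members had pooled summits at 6 of 10 (60%, 26.2 to 87.8) and a reproducible one at hsp-60 alone. The intervals overlap, and 4 of the 10 lie in the duplicated hsp-16 arms, 3 of them without a region in any list. Of 35 members placed in neither list, 23 had a pooled summit (65.7%). By compartment, pooled summits lay at 6 of 6 ER genes, 21 of 27 genes of the cytosol and nucleus (77.8%) and 3 of 5 mitochondrial genes, with a reproducible summit at 1, 2 and 1 of them, read against the same 39.0% and 2.10%. These groups are small, and reproducible summits fell in each of them.

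Replicates were compared gene by gene. Of the 65 members, 35 had a summit in both replicates (53.8%, against 23.6% of all genes) and 10 in neither (15.4%, against 46.2%). The other 20 had one in exactly 1 replicate, a share close to that of all genes (6039 of 19973). Among the 35, the ranks lay within 2-fold of each other for 17, and the median fold between ranks was 2.01, against 1.92 over the 4705 genes with summits in both. The strongest summits of both replicates lay within 100 bp of each other for 16 of the 35 (45.7%), against 36.9% of those genes. For the other members of the 35, dnj-5 among them, the strongest summits of the replicates lay more than 100 bp apart. The strongest regions of the replicates at dnj-5 still overlap, so such a distance need not mean separate places.

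**Figure D4:**
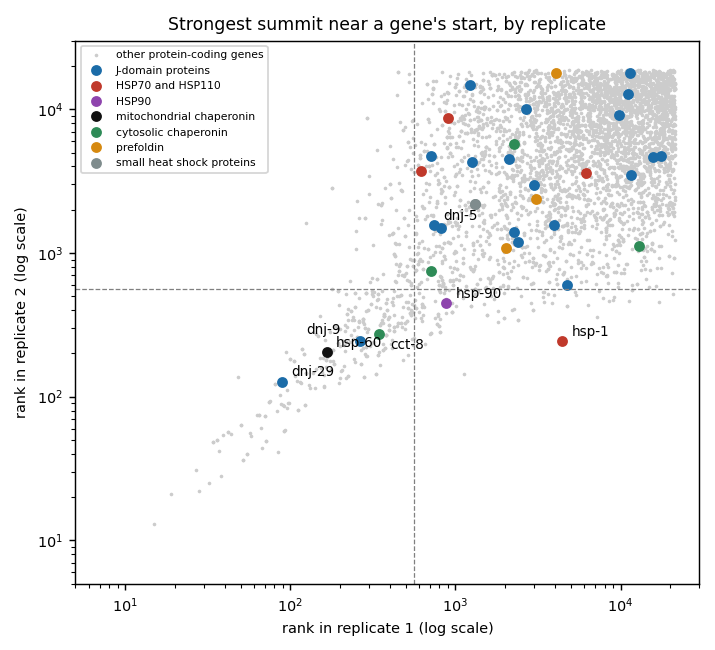
Rank of the strongest region near each gene in replicate 1 (horizontal axis) against replicate 2 (vertical axis), both on log scales with the strongest at the lower left, for 35 chaperone genes (coloured by class) and the other protein-coding genes with summits in both (grey); dashed lines mark rank 560. Of the named genes dnj-29, hsp-60, dnj-9 and cct-8 lie left of and under the lines, hsp-1 and hsp-90 pass the line in replicate 2 only, and dnj-5 in neither.

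Neighbours share many of these promoters. A start of another protein-coding gene lay within 1000 bp of a start of 33 of the 65 members, and 30 members had a divergent neighbour. Pooled summits were at 24 of these 30 (80.0%, 61.4 to 92.3, median rank 1264) and at 23 of the 35 without a divergent neighbour (65.7%, 47.8 to 80.9, median rank 4323), and 3 genes in each set had a reproducible summit. Starts within 1000 bp and divergent neighbours were counted for members only, so no matching share of all genes can be set beside these values. Whatever their neighbours, 39.0% of all genes had a pooled summit and 2.10% a reproducible one. Of the 47 strongest pooled summits, 31 were nearest to the member's own TSS and 16 nearer to another gene, so the region cannot be credited to the member alone. Genes that closely follow another on the same strand can belong to an operon read from a start further upstream. Of the 13 members with such a gene ending within 500 bp upstream, 7 had a pooled summit (53.8%, 25.1 to 80.8), 6 had one in replicate 1 and 11 in replicate 2. Of the other 52 members, 40 had a pooled summit (76.9%, 63.2 to 87.5), 39 had one in replicate 1 and 34 in replicate 2. The order of the shares thus turned around in replicate 2, with 84.6% of the 13 against 65.4% of the 52. Over all genes, the same division gave 39.1% and 38.9% in the pooled list and 37% in both sets in replicate 2. Of the reproducible regions nearest outside the window, those of cct-7 (rank 336), dnj-2 (459) and pfd-4 (also 459) had summits 3441, 3177 and 4404 bp from the nearest start, and just inside it the farthest was that of dnj-5, at 793 bp.

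**Figure D5:**
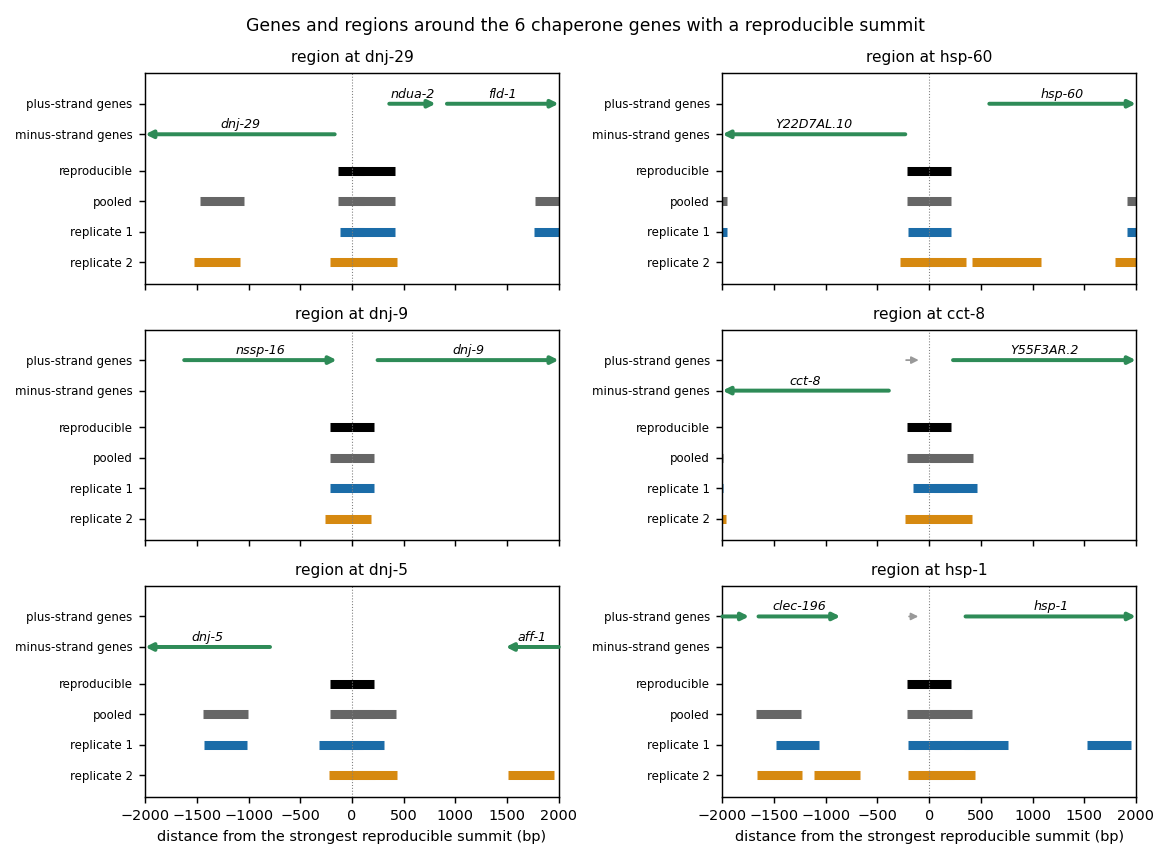
Genes (green arrows, in the direction of transcription, with noncoding RNA genes in grey) and regions of the 4 lists (bars) within 2000 bp of the strongest reproducible summit at 6 chaperone genes; the horizontal axis is the distance from that summit in bp, and bars of overlapping regions merge. The summits of dnj-29, hsp-60 and cct-8 lie between divergent gene starts, and those of hsp-60 and cct-8 are nearer to the neighbour (231 bp in both).

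Motif content was compared over promoters taken from 250 bp before to 50 bp after the gene start in RefSeq, which matched all 65 members. The heat shock element of 3 units in a row was in 10 member promoters (15.4%, 7.63 to 26.5) and in 1.97% of 19971 promoters. The shorter GAANNTTC was in 40% against 18.5% and TTCNNGAA in 30.8% against 19%. The homeodomain core TAATTA was in 21.5% against 15.5%, TAATTG in 24.6% against 23.6%, and GAGAGA in 21.5% against 21.7%. All 7 heat-induced members held the 3 units, as did hsp-1, hsp-110 and dnj-12. These 10 promoters are not independent. The promoters of hsp-16.1 and hsp-16.48 lie in an arm identical to that of hsp-16.11 and hsp-16.49. Those of hsp-16.2 and hsp-16.41 overlap. Of the 10 genes with this match, 6 had a pooled summit (60%, 26.2 to 87.8) and 1, hsp-1, a reproducible one, while of the 55 without it, 41 had a pooled summit (74.5%, 61.0 to 85.3) and 5 a reproducible one. Among the 10, hsp-16.11, hsp-16.48 and hsp-16.49 had no pooled summit, but they lie in the identical arms, where absence is uncertain. Over all 393 genes with the match, 177 had a pooled summit (45%) and 18 a reproducible one (4.58%).

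Windows of 301 bp centred on summits were searched in the same way. The 46 strongest pooled summits of members held the 3 units in 7 (15.2%, 6.34 to 28.9), against 1.97% of all pooled summits on nuclear chromosomes. The nearest match was centred 23 bp from the summit at hsp-6, 27 bp at hsp-110, 56 bp at the shared hsp-16.2 and hsp-16.41 summit, 92 bp at dnj-12, 109 bp at hsp-60, 136 bp at dnj-30 and 139 bp at pfd-3. TAATTA was in 3 of the members' windows (6.52%, 1.37 to 17.9) against 13.7%, and TAATTG in 4 (8.70%, 2.42 to 20.8) against 20.1%. Both intervals include the share of all pooled summits. In the 7 windows at the members' reproducible summits neither homeodomain core was found, against 8.72% and 10.8% of all 539 nuclear reproducible summits, and with 7 windows a share of up to 41% is within the 95% exact interval. GAANNTTC was in 4 of the 7, against 10% of the 539, and GAGAGA in 3, against 38.0%. The median GC content of these 7 windows was 35.9%, against 42.9%. A match is only a stretch of letters and was not tested for binding by any factor.

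Genes that work with the members were read from a list outside the naming rule. Among 26 co-chaperones and folding factors, 5 had a reproducible summit (19.2%, 6.55 to 39.4, against 2.10% of all genes) and 23 a pooled one (88.5%, 69.8 to 97.6, against 39.0%). The 5 genes had 4 regions among them. Y22D7AL.10 was listed with its neighbouring summit known, so its place among the 5 was fixed beforehand. The interval does not allow for this. The divergent inducible HSP70 genes F44E5.4 and F44E5.5 shared a region of rank 463 and signal value 134, Y22D7AL.10 shared the hsp-60 region, and the protein disulfide isomerase genes pdi-2 and pdi-3, of oxidative folding in the ER, had regions of rank 424 and 538. Of 10 regulators, 8 had a pooled summit and 1 a reproducible one. It was atf-6, an ER stress transcription factor, at rank 556 with a signal value of 118, 175 bp upstream. For hsf-1, the regulator of the heat shock response, the strongest pooled summit ranked 5653, and for xbp-1 1845. No pooled summit lay at ire-1, atf-4, chn-1, unc-45 or cnx-1.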

How the data were processed

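Per the labels, LIN-11-GFP ChIP-seq was done on 2 biological replicates of 1 strain. Per the deposited notes, the authors called regions on assembly ce11 in each replicate and in both replicates' alignments together (the pooled list) against 1 shared control alignment, and took 560 regions by the irreproducible discovery rate. All 560 are among the 560 strongest of the pooled list. The sources used here do not name the aligner, the peak caller, versions or thresholds. The deposited signal value of each region was used to rank and describe regions within a list, never between lists, and the deposited summit offset gave the summit. Replicates share the control, and a list's length does not measure binding. Read counts are not in these lists, so intervals (exact Clopper-Pearson, 95%) cover counting error over genes only.

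Gene models came from Ensembl release 115 on WBcel235, which is ce11, and sequence, products and promoter starts from RefSeq on the same assembly. Ensembl uses the names hsp-16.1 and hsp-16.48 for both copies of each, and RefSeq symbols told them apart. RefSeq's hsp-16.20 and hsp-16.21 are named otherwise in Ensembl and were not members. A replicate's value for a reproducible region is that of the overlapping region with the nearest summit, and for a gene that of its strongest region. Structural, induction and compartment lists rest on general knowledge. Members and lists were chosen with earlier results of these data known, and Y22D7AL.10 was listed with its neighbouring summit known. With 1 group no test was made. The genes named are members with a reproducible summit, the next 15 by pooled signal, stress-induced, cct and pfd members, and protein-coding genes starting within 1000 bp of a member's reproducible summit. Others were chosen after their values were seen. Alternatives were windows of 500 and 2000 bp, nearest start only, overlap of the region, RefSeq starts, the upper 50% of each list by signal, each replicate alone, and motif windows at summits. Assignment of summits was tested on simulated data. Python 3.11.15, SciPy 1.17.1 and Matplotlib 3.10.9 were used.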

Additional observations from a re-analysis of the deposited data

How the results depend on the processing

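Counts are given with the share of all genes under the same setting. The count of members with a reproducible summit, 6 (2.10%), was 4 with a window of 500 bp (1.51%) and 6 with 2000 bp (3.12%). It was 4 with summits assigned only to the nearest start (1.55%), 6 by overlap of the region (2.34%) and 6 with RefSeq starts (2.06%). With the upper 50% of the list by signal it was 3 (dnj-9, dnj-29 and hsp-60), against 0.911% of all genes. Leaving out a replicate gave 4 to 6: without replicate 2 (2.05% of all genes) dnj-5 and hsp-1 were lost, and without replicate 1 (2.00%) dnj-5 was lost and hsp-90 entered. Only dnj-9 and dnj-29 were counted under every alternative, and hsp-60 and cct-8 were each lost with the nearest start and under 1 other setting. The count with a pooled summit, 47 (39.0%), ran from 37 to 56. It was 40 with a window of 500 bp (27.7%) and 56 with 2000 bp (53.3%). It was 37 with the nearest start only (34.2%) and 37 with the upper 50% of the list by signal (23.9%). By overlap of the region it was 51 (42.6%), and with RefSeq starts 47 (38.4%). With either replicate alone it was 45 (40.4% without replicate 2 and 37% without replicate 1). Compared with promoters, windows at summits gave lower shares for TAATTA (6.52%, from 21.5%) and TAATTG (8.70%, from 24.6%), with intervals that overlap, and the cause was not tested. Between replicates the rank moved most for the hsp-1 region, from 4443 to 243. Depth and signal scale are unknown, so no limit of detection could be set, and a missing region does not show that LIN-11 was absent.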
